A study of Arabidopsis thaliana with 18 samples.

Results

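The comparison set roots against shoots of Arabidopsis thaliana plants (accession Col-0) that had been given ACC, 1-aminocyclopropane-1-carboxylic acid, while growing on salt. It used the 3 root and the 3 shoot libraries labelled as ACC plants, 6 of the 18 libraries of the series, and all 27371 genes of the expression table. A gene was tested where it reached at least 1 FPKM, a count of fragments set relative to transcript length and to all mapped fragments, in at least 3 of the fitted libraries, and 18357 genes did. Seedlings had germinated for 5 days and then spent 16 days on plates with 100 mM NaCl and 100 nM ACC, so that the plants were 21 days old when roots and shoots were cut apart. Every ACC library therefore shares the salt, the compound and the wild-type genotype, and no ACC plant without salt entered. The 3 root and 3 shoot libraries of plants given KMBA, 2-keto-4-methylthiobutyric acid, at the same dose and on the same salt were fitted together with them, both to share 1 estimate of the spread and to test whether an organ difference was the same with the other compound. The study's methods call the 3 libraries of each condition biological replicates. The labels number them 1 to 3 within each organ and do not say whether they came from separate plates, so p-values measure the spread between these samples.

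Roots and shoots divide the work of the plant. Leaves carry the chloroplasts, the stomatal pores and the waxy cuticle, and roots take up water and mineral ions through root hairs and pass them across an endodermis sealed by the Casparian strip and suberin. ACC is the direct precursor of ethylene: SAM synthetases make S-adenosylmethionine, ACC synthases (ACS) turn it into ACC, and ACC oxidases (ACO) turn ACC into ethylene gas. Receptors of the ETR and ERS kinds bind ethylene with a copper ion delivered by RAN1, and through CTR1 and EIN2 the signal reaches the transcription factors EIN3 and EIL1, which switch on ERF genes. KMBA is a keto acid of methionine metabolism that can also be turned into ethylene.

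The promoters of 6 genes around which the results turn are shown first, as the 250 bases before the start of the gene in the RefSeq annotation of the TAIR10.1 assembly. Capitals mark the G-box (CACGTG), the I-box (GATAAG) and the GCC box (GCCGCC, the element that ERF proteins bind), each searched on both strands. RBCS2B encodes a small subunit of Rubisco, the CO2-fixing enzyme, and had the largest difference in favour of shoots, and RBCS3B encodes another. ORA59 encodes an ERF protein of defence, and CHI-B a basic chitinase that is a common marker of the ethylene response. CYP79F1 and CYP79F2 encode cytochromes P450 of glucosinolate synthesis, lie 1183 bases apart on chromosome 1 in the same orientation, and divided between the organs.
RBCS2B, chr5:15382072-15382321, minus strand: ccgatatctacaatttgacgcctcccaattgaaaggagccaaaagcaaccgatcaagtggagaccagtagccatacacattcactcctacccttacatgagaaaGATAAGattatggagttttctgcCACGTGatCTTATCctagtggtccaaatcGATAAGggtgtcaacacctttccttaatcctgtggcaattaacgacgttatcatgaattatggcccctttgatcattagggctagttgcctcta
RBCS3B, chr5:15378643-15378892, minus strand: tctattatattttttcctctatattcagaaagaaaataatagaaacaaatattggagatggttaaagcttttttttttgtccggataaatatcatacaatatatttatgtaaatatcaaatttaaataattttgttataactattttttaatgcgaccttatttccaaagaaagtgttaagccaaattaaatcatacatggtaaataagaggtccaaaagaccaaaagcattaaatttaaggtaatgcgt
ORA59, chr1:1882657-1882906, plus strand: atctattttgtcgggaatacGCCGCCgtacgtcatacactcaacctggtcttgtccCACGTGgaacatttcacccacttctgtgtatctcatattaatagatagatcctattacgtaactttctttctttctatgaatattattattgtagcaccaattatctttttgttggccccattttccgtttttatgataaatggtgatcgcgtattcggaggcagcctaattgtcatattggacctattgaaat
CHI-B, chr3:3963985-3964234, minus strand: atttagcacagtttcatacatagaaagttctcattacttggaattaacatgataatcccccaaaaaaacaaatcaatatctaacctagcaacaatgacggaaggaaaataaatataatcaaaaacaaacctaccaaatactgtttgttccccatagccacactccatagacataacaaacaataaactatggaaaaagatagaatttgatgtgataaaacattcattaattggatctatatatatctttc
CYP79F1, chr1:5608432-5608681, plus strand: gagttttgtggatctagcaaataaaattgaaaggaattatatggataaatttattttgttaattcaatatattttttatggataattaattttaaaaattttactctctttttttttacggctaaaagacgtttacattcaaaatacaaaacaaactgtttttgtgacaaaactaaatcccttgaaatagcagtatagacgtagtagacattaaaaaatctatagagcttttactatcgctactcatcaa
CYP79F2, chr1:5604794-5605043, plus strand: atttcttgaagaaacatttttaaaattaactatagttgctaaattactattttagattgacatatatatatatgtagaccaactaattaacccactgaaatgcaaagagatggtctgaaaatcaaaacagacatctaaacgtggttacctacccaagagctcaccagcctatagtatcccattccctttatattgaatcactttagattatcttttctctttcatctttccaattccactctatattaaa

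The RBCS2B window held 3 I-boxes, whose 5′ ends lie 146, 115 and 94 bases before the start, and 1 G-box between them at 123 bases. The windows of RBCS3B, RBCS1A and RBCS1B, which were also higher in shoots, held none of these motifs. Windows follow the annotated gene starts, so a motif outside a window is missed. The RBCS1B and RBCS2B windows share a run of 23 identical bases, which lies before the boxes in RBCS2B. The RBCS1B window stops at gataa, the first letters of an I-box, so it cannot show whether an I-box follows. That of ORA59 held 1 GCC box at 230 bases and 1 G-box at 194 bases, and those of CHI-B and HEL, the ethylene response genes with the largest differences in favour of roots, held neither. Neither CYP79F window held any of these letters, and the longest run of identical bases that the neighbours' windows share was 8. A promoter window could be read for 18209 tested genes, of which 1.9% held a GCC box, 7.2% a G-box and 12.4% an I-box. Among genes higher in roots the shares were 1.7%, 6.7% and 12%, and among genes higher in shoots 1.5%, 7.9% and 15.3%. Over the gene lists the share of windows with an I-box followed no organ: it was 23.3% for 30 photosystem and electron transport genes and 31.6% for 19 genes of root patterning, but 5.3% for 19 genes of chlorophyll synthesis and 6.2% for 16 of photorespiration, and 0 of 19 cuticle windows held one. A G-box was found in 4 of 20 antenna and 6 of 30 photosystem windows, and in 0 of 25 root hair and 0 of 26 mineral uptake windows. It was also absent from all 19 cuticle windows and found in 3 of 9 hypoxia windows. A GCC box was found in 3 of 23 windows of ethylene response genes. These are matches of letters and not sites shown to be bound.

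Roots and shoots differed in 6718 genes by more than 2-fold at an adjusted p under 0.05 (limma on log2(FPKM + 1), Benjamini-Hochberg over all tested genes): 4165 genes, 22.7% of those tested, were higher in roots and 2553, 13.9%, were higher in shoots. For 6699 of them the 3 root libraries and the 3 shoot libraries did not overlap. Differences over 32-fold were found for 177 genes higher in roots and 115 higher in shoots. The median gene stood 0.37 above 0 on the log2 scale in favour of roots. List medians are set beside that value below, while single genes were called by their difference from 0. With median-ratio scaling of the libraries the median of all tested genes was 0.01. The calls became 3027 higher in roots and 3169 higher in shoots, 16.7% and 17.4% of tested genes. The share of calls in favour of roots thus moved from 62.0% to 48.9%. With every library set to an equal FPKM sum the median was 0.55 and the calls were 6018 and 2727. List counts below stand beside 22.7% and 13.9% of all tested genes, and those with median-ratio scaling beside 16.7% and 17.4%. Adding 1 to each FPKM value makes the differences of weakly expressed genes look smaller than they are, and folds named in the text are on that scale. For every gene named below as higher in roots or in shoots, the libraries of the organs did not overlap.

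**Figure D1:**
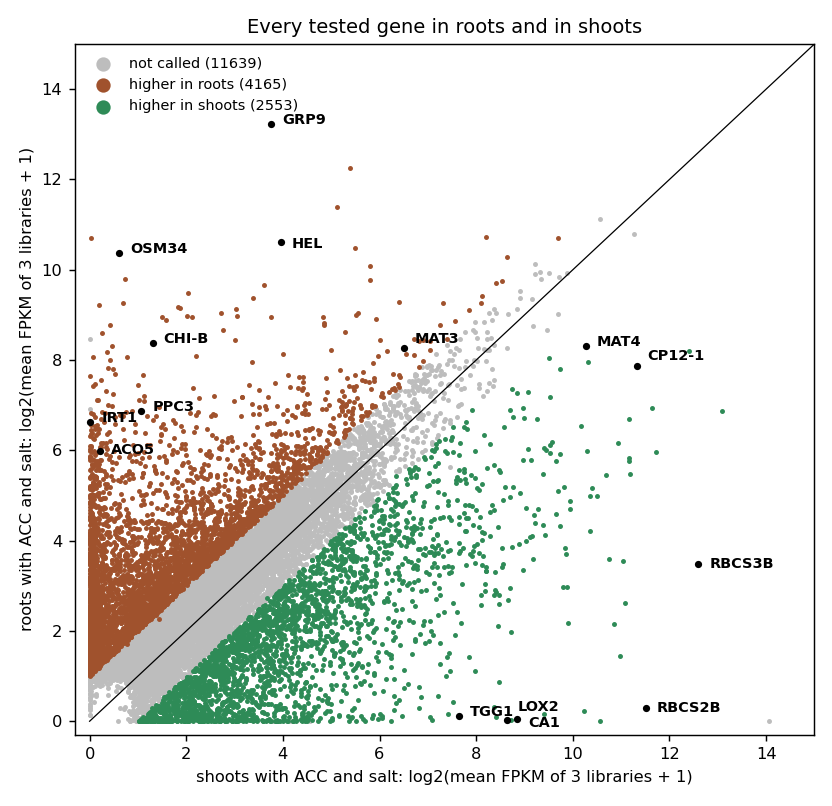
Each point is 1 of the 18357 tested genes, with its level in shoots across and in roots upwards, both as log2 of the mean FPKM of 3 libraries plus 1. Genes higher in roots (4165) lie above the diagonal line of equal levels and genes higher in shoots (2553) below it, and RBCS2B, CA1 and LOX2 lie at the foot of the plot, near 0 in roots.

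The libraries matched their organ labels. The summed level of the 8 markers fixed for shoots was 111 to 167 FPKM in roots and 9990 to 12290 in shoots, and most of the root sum was RBCS1A at 85.2, 132 and 129 FPKM. Carbonic anhydrase CA1 and the leaf polarity gene FIL were near 0 in every root library. Of the 8 root markers, 7 were tested and all 7 were higher in roots, with a sum of 654 to 781 FPKM in roots and 4.64 to 6.72 in shoots, most of it the beta-glucosidase BGLU23. ESB1, a Casparian strip gene, reached only 0.378 to 0.583 FPKM in roots and was not tested. The 6 flower organ markers summed to at most 0.388 FPKM in shoots. Libraries of 1 organ correlated with r of 0.979 to 0.992. A 102-base gene, AT2G01021, alone took 8.7 to 21.2% of the FPKM sums, and AT5G53144, at 0 in the other ACC libraries, took 11.6% in ACC shoot 1. All ACC root libraries were sequenced in pool 4, ACC shoot 1 in pool 1 and ACC shoots 2 and 3 in pool 3, so organ and pool cannot be told apart. In such bulk samples fewer cells of a type and less RNA per cell cannot be told apart either.

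The 15 genes with the largest differences in favour of roots were led by AT4G33720. This gene, a member of the CAP family that includes pathogenesis-related protein 1, stood at 1589, 1610 and 1773 FPKM in root replicates 1, 2 and 3 and at 0, 0.0468 and 0 in the shoots, a log2 difference of 10.67 ± 0.27 (SE; adjusted p = 2.2e-12). The glycine-rich protein gene GRP9 was among the highest of all genes in roots, with 10090, 9391 and 9349 FPKM against 28.9, 5.21 and 3.59 in shoots, where replicate 1 stood above the other two. OSM34, an osmotin-like protein of a family first described in salt-adapted tobacco cells, had 1227, 1279 and 1458 FPKM in roots and less than 1 FPKM in each shoot library. The others of the 15 were a glycosyl hydrolase (AT4G16260), an acyltransferase (AT4G15390), the major latex proteins MLP34, MLP328 and MLP329, the flavonol synthase-like FLS5, the extensin-like AT3G54580 and AT3G28550, the peroxidase AT4G30170, the trypsin inhibitor KTI1, AT2G05510 and AT5G05960, with log2 differences between 7.45 and 9.10.

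The 15 genes with the largest differences in favour of shoots were led by RBCS2B. This gene, whose promoter is printed above, had 3035, 3575 and 2099 FPKM in shoots against 0.0288, 0.506 and 0.138 in roots, a log2 difference of -11.20 ± 0.29 (adjusted p = 2.4e-12). Its neighbours RBCS3B and RBCS1B followed with log2 differences of -9.16 ± 0.18 and -8.74 ± 0.22. These 3 genes are nearly identical and reads can be divided among them, so the split between them is uncertain. The germin-like genes GER3 (-9.25 ± 0.15) and GER1 (-8.47 ± 0.13), the chloroplast envelope protein gene OEP6 (-9.55 ± 0.18), the lipoxygenase LOX2 of jasmonate synthesis (-8.61 ± 0.09), the myrosinase TGG1 (-7.53 ± 0.07) and ESM1, which steers the products of glucosinolate breakdown (-8.02 ± 0.14), belonged to the same 15, as did CA1, ECS1, LHCB1.1, LHCB1.2, AT2G10940 and AT1G23130. LOX2 stood at 349.9, 462 and 382 FPKM in shoots and at 0, 0.0326 and 0.0214 in roots.

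Every listed gene of the photosynthetic apparatus was higher in shoots, where 13.9% of all tested genes were. All 20 light-harvesting antenna genes, all 30 photosystem and electron transport genes and all 21 Calvin cycle genes passed the test, with median log2 differences of -5.07, -5.08 and -5.60 against 0.37 over all tested genes. The photosystem I subunit gene PSAL had 12.5, 14 and 13.6 FPKM in roots and 886, 955 and 885 in shoots (-5.99 ± 0.08, adjusted p = 3e-14), and the antenna protein gene LHCB4.1 had 43.3, 42.9 and 42.1 in roots and 1627, 1655 and 1631 in shoots. The spread within each organ was small beside the gap. Roots were not without these transcripts: the most abundant antenna gene, LHCB1.3, reached 289, 334 and 252 FPKM there, and CP12-1, a regulator of the Calvin cycle, 229.6, 221 and 250.2 FPKM. LHCB1.1, LHCB1.2 and LHCB1.3 are related neighbours on chromosome 1 among which reads can be divided, so the split between them is uncertain.

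The smallest differences of the Calvin list were those of enzymes that also serve the pentose phosphate pathway or glycolysis. Triose phosphate isomerase, TIM, differed by -1.22 ± 0.10, transketolase TKL1 by -2.28 ± 0.10 and ribulose phosphate epimerase RPE by -2.49 ± 0.20. In photorespiration, which salvages the product of Rubisco's reaction with oxygen, 13 of 16 genes were higher in shoots and none was higher in roots. Glycolate oxidase GOX1 stood at 0.55, 0.789 and 0.711 FPKM in roots and 96.2, 128 and 113 in shoots, and the plastid glycolate transporter PLGG1 at 0.425, 0.304 and 0.249 and 92.9, 76.4 and 71.7. The catalase CAT2 (-0.32 ± 0.15, adjusted p = 0.065) and glycerate kinase GLYK (-0.33 ± 0.24, adjusted p = 0.21) did not pass the test.

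Chlorophyll synthesis was higher in shoots for 18 of 19 tested genes, with a median of -2.50. Protochlorophyllide reductase PORC had 1.62, 2.19 and 1.57 FPKM in roots and 74.5, 73.6 and 67.6 in shoots (-4.71 ± 0.10), and GLK1, a transcription factor of chloroplast development, had 0.112, 0.156 and 0.137 and 25.2, 20.3 and 20.1 (-4.32 ± 0.15). HEMA1, which makes the first committed step of the pathway that also supplies haem, differed far less (-1.27 ± 0.12), and HEMA2 stayed within 2-fold (-0.45 ± 0.13).

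Genes of the leaf surface were likewise on the shoot side. Of 14 tested stomatal genes 13 were higher in shoots (median -1.90). FAMA, which sets guard cell fate, was listed at 0 in all roots and had 4.25, 4.6 and 4.2 FPKM in shoots, and the receptor-like TMM had 0.163, 0.125 and 0.0877 FPKM in roots and 9.99, 9.7 and 8.43 in shoots. Of 19 tested cuticle genes 14 were higher in shoots (median -2.32), among them the wax synthesis genes CER6 (3.46, 4.26 and 2.94 FPKM in roots, 101, 82 and 126 in shoots) and CER2 (-4.20 ± 0.12). The long-chain acyl-CoA synthetase LACS1 (-2.33 ± 0.07) and the ABC transporter gene ABCG11 (-2.35 ± 0.09), which exports wax and cutin, were also higher in shoots. GPAT4 and CYP86A4 of cutin synthesis had values near 0 (0.18 ± 0.08 and -0.06 ± 0.17).

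**Figure D2:**
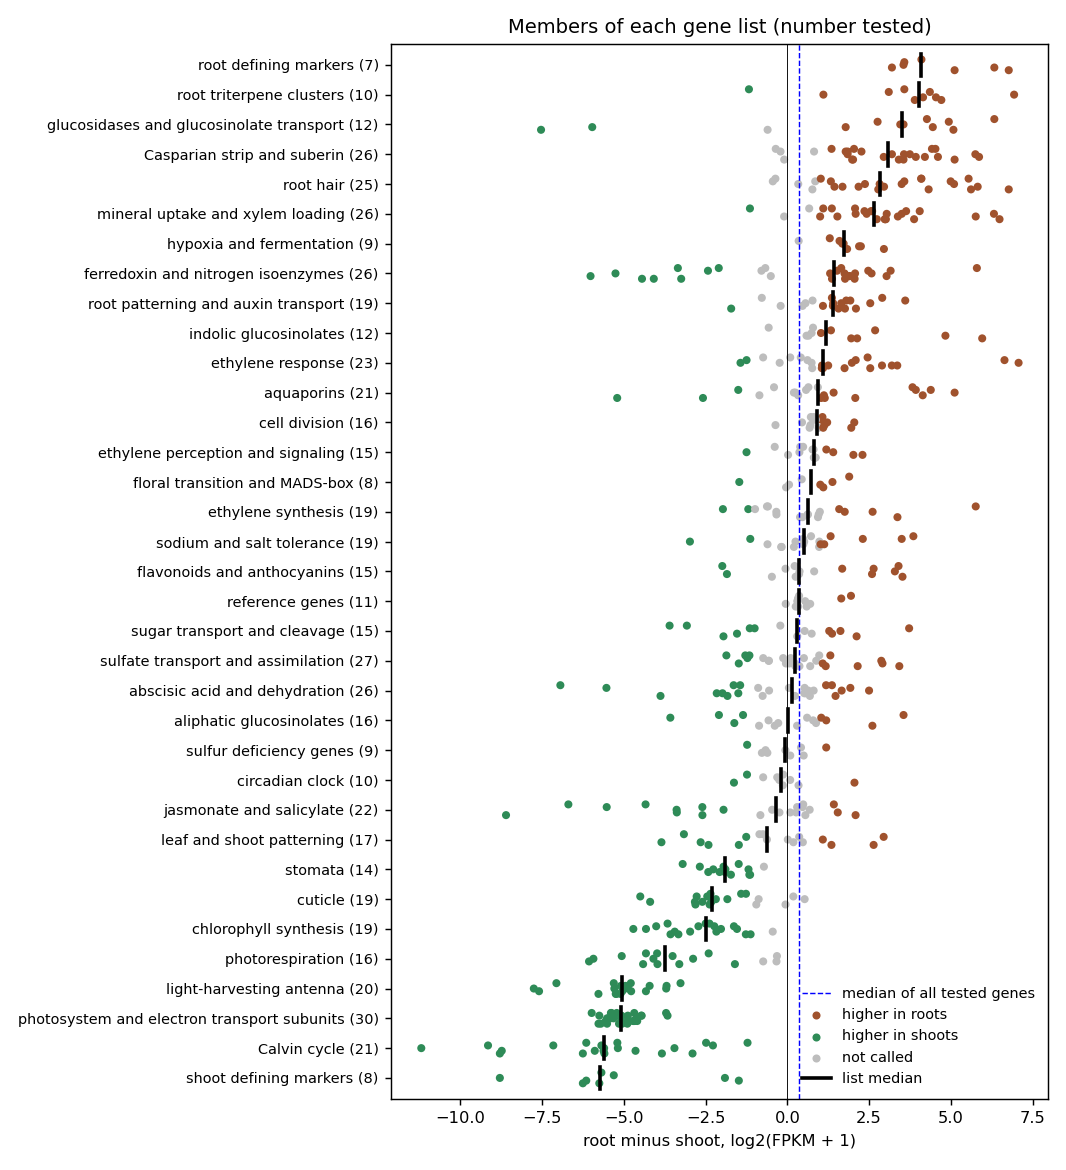
Each point is 1 tested member of a gene list, placed by its log2 difference between roots and shoots, with the number of tested members beside the list's name. The 4 photosynthesis and marker lists at the bottom lie wholly below -1, Casparian strip, root hair and mineral uptake genes lie mostly above 1, and the black bars mark list medians, among them -5.60 for the Calvin cycle and 4.02 for the root triterpene clusters, against the dashed line at 0.37 for all tested genes.

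Genes of the root's own barrier were higher in roots. Among 26 tested genes of the Casparian strip and of suberin, 22 were higher in roots, beside 22.7% of all tested genes, and none was higher in shoots (median 3.07). CASP1, a scaffold protein of the Casparian strip, had 34, 36.2 and 40 FPKM in roots and 0.044, 0.109 and 0.104 in shoots (5.12 ± 0.11), and its regulator MYB36 had 10.4, 11.6 and 11.7 and 0.0534, 0 and 0.063. The suberin hydroxylase CYP86A1 stood at 63.5, 63 and 72.8 FPKM against 0.323, 0.0873 and 0.0712 (5.86 ± 0.11, adjusted p = 1.7e-13), the acyltransferase GPAT5 at 10.5, 9.7 and 9.95 against 0.093, 0 and 0.0243, and the suberin exporter ABCG6 at 19.4, 18.2 and 18.7 against 0.133, 0.0658 and 0.0104. In all of these genes the shoot libraries were below 1 FPKM and the root libraries lay close together. KCS20, a fatty acid elongase that also serves the cuticle, differed by -0.36 ± 0.11. SCR, a regulator of endodermis and of leaf bundle sheath, differed by -0.10 ± 0.09 (adjusted p = 0.33).

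Root hair genes were higher in roots for 20 of 25 tested members (median 2.82). The proline-rich cell wall protein gene PRP3 had 139, 101 and 96.7 FPKM in roots and at most 0.0695 in shoots (6.77 ± 0.16). The NADPH oxidase RHD2, which drives tip growth, had 6.94, 7.02 and 7.66 FPKM against 0.094, 0.0202 and 0.0527, the expansin EXPA7 16.4, 15.5 and 18.4 against 0.0354, 0.0439 and 0.0209, and the initiating transcription factor RHD6 5.77, 5.75 and 7.09 against 0.0394, 0.0325 and 0.0619. Each of these genes was at a few FPKM or more in all roots and close to 0 in all shoots. GL2 and GL3, regulators of epidermal patterning that leaves also use in trichomes, differed by 0.33 ± 0.09 and 0.85 ± 0.08 on the log2(FPKM + 1) scale. GL3 was low in both organs, at 1.05, 1.02 and 1.15 FPKM in roots and 0.107, 0.164 and 0.17 in shoots, so that the added 1 shrinks its difference.

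Mineral uptake and xylem loading followed, with 23 of 26 tested genes higher in roots (median 2.66). The ammonium transporter AMT1;3 had 69.8, 60.9 and 45.1 FPKM in roots and 0.133, 0.0822 and 0.0313 in shoots, and the phosphate transporter PHT1;1 97.5, 87.8 and 62.9 and 0.0314, 0.013 and 0.0493, though PHT1;1 and PHT1;2 are nearly identical and their split is uncertain. The potassium channel AKT1 had 18.9, 20.5 and 21.6 FPKM against 0.954, 0.791 and 0.907 (3.50 ± 0.08), and PHO1, which loads phosphate into the xylem, 14.3, 18 and 17 against 0.22, 0.147 and 0.174 (3.88 ± 0.08). These transporters thus stood far apart between organs, with root 3 the lowest root for AMT1;3 and PHT1;1. The iron transporter IRT1 varied among root libraries, at 101, 146 and 48.9 FPKM, yet none of the shoot libraries exceeded 0.0299 FPKM. The ammonium transporter AMT1;1 was the only tested member called higher in shoots, with 109.6, 128 and 129.8 FPKM against 58.7, 60.6 and 46 (-1.14 ± 0.13).

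Of 19 tested sodium and salt tolerance genes, 6 were higher in roots and 2 in shoots, beside 22.7% and 13.9% of all tested genes (median 0.51, or 4 and 2 with median-ratio scaling). HKT1, which retrieves sodium from the xylem, had 8.44, 11.7 and 11.9 FPKM in roots and 0.022, 0.034 and 0.0129 in shoots (3.50 ± 0.14), and the cation exchanger CHX17 12.9, 14.2 and 15.6 and 0.0654, 0.0515 and 0.0349 (3.86 ± 0.09). The plasma membrane sodium exporter SOS1 just missed the 2-fold threshold on the log2(FPKM + 1) scale (0.97 ± 0.11, adjusted p = 3.7e-06), which shrinks differences at such levels, with 2.54, 3.4 and 3.52 FPKM in roots and 1.24, 0.861 and 1.24 in shoots. The anion channel SLAH3 was higher in shoots, 63.8, 98.9 and 123 FPKM against 11.5, 11.1 and 9.76 (-2.98 ± 0.22). Shoot 1 was the lowest shoot for SLAH3 and still well above all roots. The vacuolar exchanger NHX1 (0.72 ± 0.11) and the proton pump AVP1 (-0.17 ± 0.09) were within 2-fold.

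Aquaporins, the water channels, gave 10 higher in roots and 3 in shoots of 21 tested (7 and 4 with median-ratio scaling). Over all tested genes 22.7% were higher in roots and 13.9% in shoots. TIP2;3, of the vacuole membrane, had 28.7, 32.6 and 41.5 FPKM in roots and at most 0.0199 in shoots. PIP2;6, of the plasma membrane, was its opposite, with 0.678, 1.02 and 1.01 FPKM in roots and 64.8, 64.8 and 78 in shoots (-5.21 ± 0.13). PIP2;2 (4.14 ± 0.13) shares reads with its near-identical neighbour PIP2;3. For sugars, the sucrose exporter SWEET11 (1.24, 1.21 and 1.61 FPKM in roots, 27.5, 29 and 26 in shoots) and the triose phosphate translocator TPT (-3.07 ± 0.13) were higher in shoots, and the cell wall invertase CWINV1 (50, 55.5 and 52 and 3.18, 2.38 and 3.67 FPKM) and the vacuolar sugar importer TMT1 in roots. The sugar list gave 5 in roots and 6 in shoots of 15 tested, beside the same 22.7% and 13.9% (4 and 7 with median-ratio scaling).

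Enzymes with a photosynthetic and a non-photosynthetic form divided by organ. Ferredoxin carries electrons from photosystem I in leaves and from NADPH in roots, and the ferredoxin-NADP reductases run the reaction in either direction. The leaf-type reductase LFNR2 had 0.845, 1.92 and 2.29 FPKM in roots and 169.5, 182 and 154 in shoots (-6.02 ± 0.17), and the root-type RFNR2 had 61.1, 60.2 and 46.9 and 5.54, 4.83 and 5.68 (3.16 ± 0.10). LFNR1 and RFNR1 went the same ways (-4.09 ± 0.15 and 2.07 ± 0.12). Leaf-type and root-type reductases were therefore opposite in both pairs. The ferredoxins FD2 and FD1 were higher in shoots (-4.45 ± 0.09 and -3.35 ± 0.10), and FD3 was higher in roots, at 115, 89.5 and 68.8 FPKM (3.04 ± 0.14).

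Nitrogen assimilation divided as well. The ferredoxin-dependent glutamate synthase GLU1 was higher in shoots (-5.26 ± 0.09), and GLU2 (2.48 ± 0.08) and the NADH-dependent GLT1 (1.65 ± 0.09) were higher in roots. The plastid glutamine synthetase GLN2 was higher in shoots, with 121, 132 and 112 FPKM against 11.2, 12.7 and 11.8, and the cytosolic GLN1;1, GLN1;2 and GLN1;3 were higher in roots by 1.90 ± 0.10, 1.31 ± 0.18 and 1.52 ± 0.09, GLN1;2 losing its call with median-ratio scaling. Of the nitrate reductases NIA1 was higher in roots (2.58 ± 0.30), while NIA2 was within 2-fold (-0.79 ± 0.19, but called in favour of shoots with median-ratio scaling at -1.22). Phosphoenolpyruvate carboxylase, which refills the citric acid cycle, gave PPC3 at 131, 120.4 and 98.3 FPKM in roots and 1.06, 1.29 and 0.963 in shoots (5.80 ± 0.11, adjusted p = 1.7e-13) and PPC2 at 8.4, 8.92 and 8.4 and 51.2, 49.9 and 50.3 (-2.43 ± 0.08). The carboxylases PPC3 and PPC2 were thus on opposite sides, each with tight libraries. The plastid glucose-6-phosphate dehydrogenases G6PD2 and G6PD3 were higher in roots (1.77 ± 0.08 and 1.90 ± 0.10) and G6PD1 in shoots (-2.10 ± 0.15). Over the whole list 15 genes were higher in roots and 8 in shoots of 26 tested, beside 22.7% and 13.9% of all tested genes. With median-ratio scaling the list gave 13 and 10, beside 16.7% and 17.4%.

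**Figure D3:**
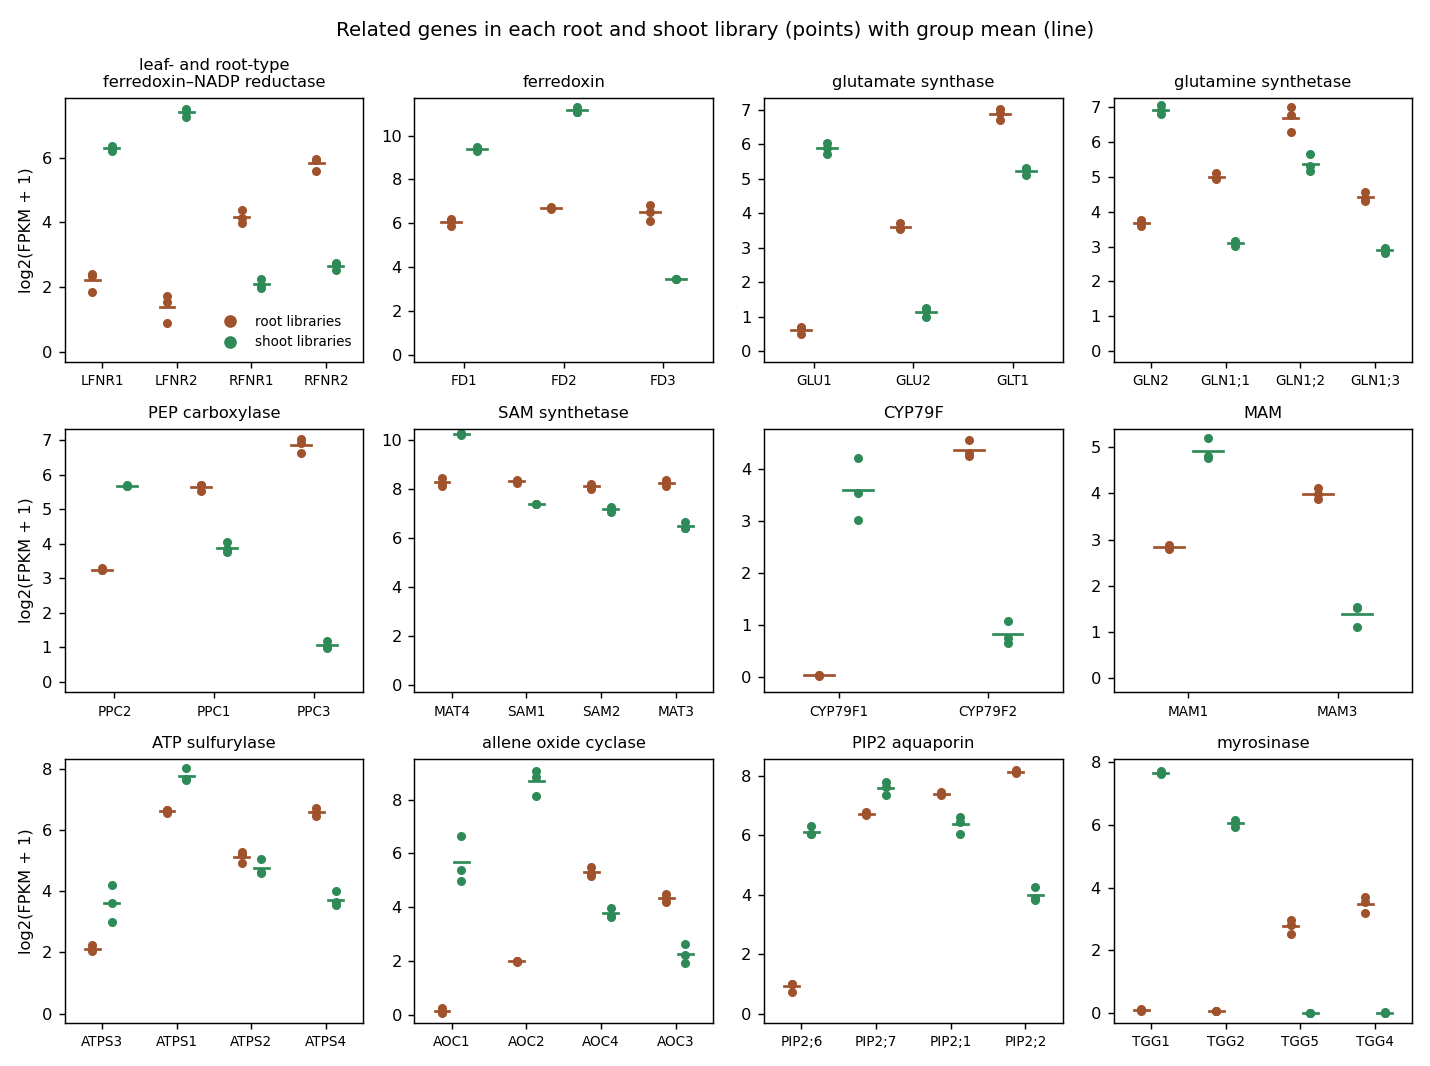
Each panel shows related genes, with the 3 root libraries and the 3 shoot libraries as points and their mean as a line, on the log2(FPKM + 1) scale. Each panel holds at least 1 gene higher in shoots and at least 1 higher in roots: CYP79F1 is near 0 in roots and CYP79F2 near 1 in shoots, and the reductases LFNR and RFNR change places between organs.

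The genes of ethylene synthesis, perception and response are described by their roles. Of 19 tested synthesis genes 5 were higher in roots and 2 in shoots (median 0.62), shares near the 22.7% and 13.9% of all tested genes. The 4 SAM synthetases divided: MAT4 was higher in shoots, at 1201, 1241 and 1251 FPKM against 352, 308 and 284 in roots (-1.97 ± 0.13, adjusted p = 1.6e-08), and MAT3 was higher in roots, at 333, 309.7 and 276 against 101, 84 and 85 (1.76 ± 0.10). SAM1 and SAM2 stayed just within 2-fold (0.94 ± 0.08 and 0.96 ± 0.09). The ACC oxidases, which use the compound the plants were given, had the widest range. ACO5 stood at 53.1, 63.1 and 71.2 FPKM in roots and 0.154, 0.268 and 0.0729 in shoots (5.76 ± 0.11, adjusted p = 1.9e-13), ACO1 at 18.5, 18.6 and 18.4 and 1.04, 0.674 and 0.974 (3.37 ± 0.09), and ACO3 at 8.35, 9.84 and 11.2 and 0.583, 1.02 and 0.704 (2.61 ± 0.13). ACO5, ACO1 and ACO3 were near or below 1 FPKM in all shoots. The abundant ACO4 was higher in shoots but did not reach 2-fold, with 101, 106 and 122 FPKM in shoots against 55.4, 53 and 55.8 in roots (-0.99 ± 0.10, past 2-fold with median-ratio scaling at -1.41).

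The ACC synthases were low in both organs. ACS6 was the highest, at 7.67, 7.63 and 8.23 FPKM in roots and 4.79, 3.94 and 5.54 in shoots (0.63 ± 0.11). ACS8 was higher in shoots, at 1.12, 1.03 and 2.27 against 0.0529, 0.0394 and 0.0753 FPKM (-1.20 ± 0.14, under 2-fold without ACC shoot 3 at -0.98), and ACS2, ACS7, ACS11 and ACS5 did not reach 2-fold on the log2(FPKM + 1) scale. At these levels the added 1 weighs heavily: ACS5 had 0.663, 0.528 and 0.378 FPKM in roots and 0.121, 0.0818 and 0.104 in shoots, ACS2 0.712, 0.832 and 0.814 and 1.57, 1.15 and 2.75, and ACS11 1.15, 0.91 and 0.621 and 1.33, 1.77 and 2.53. ACS4 and ACS9 did not reach the minimum for testing. The E3 ligase components ETO1, EOL1 and EOL2, which mark ACC synthases for destruction, were between 0.39 and 0.99. LHT1, an amino acid transporter that also carries ACC, was higher in roots (6, 6.2 and 7.39 FPKM against 1.74, 1.27 and 1.52; 1.59 ± 0.13).

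Of 15 tested genes of perception and signaling 4 were higher in roots and 1 in shoots (median 0.80), and 2 and 1 with median-ratio scaling. Over all tested genes 22.7% were higher in roots and 13.9% in shoots, or 16.7% and 17.4% with median-ratio scaling. The list thus stood near the whole table for roots. RAN1, the copper transporter, had 52.8, 54.8 and 58.3 FPKM in roots and 10.3, 9.84 and 11.1 in shoots (adjusted p = 2.2e-11). The receptor ETR2 had 14.5, 13.1 and 14.9 and 3.06, 3.49 and 1.88 (2.02 ± 0.16), and ERS1 39.9, 52.7 and 61 and 21.1, 18.4 and 16.2. ETR1, ERS2 and EIN4 were within 2-fold (0.87 ± 0.07, 0.77 ± 0.09 and 0.48 ± 0.08). EIN2 was higher in roots (1.19 ± 0.08), but ERS1 and EIN2 lost their calls with median-ratio scaling. The root libraries stood above all shoot libraries for RAN1, ETR2, ERS1 and EIN2. EIN3 did not pass the test, with 71.5, 66.8 and 72.5 FPKM in roots and 64.9, 67.1 and 76.1 in shoots (0.02 ± 0.08, adjusted p = 0.8), whereas its relative EIL1 was higher in shoots, 69.3, 72.8 and 75.5 against 29.9, 29.3 and 30.6 (-1.25 ± 0.07). CTR1 and the F-box genes EBF1 and EBF2, which remove EIN3, were within 2-fold of equal.

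Among 23 tested ethylene response genes 14 were higher in roots and 2 in shoots (median 1.09), and 10 and 3 with median-ratio scaling. The shares of all tested genes were 22.7% and 13.9%, and 16.7% and 17.4% with median-ratio scaling. The basic chitinase CHI-B had 328, 313 and 346 FPKM in roots and 1.8, 1.06 and 1.54 in shoots (7.07 ± 0.13, adjusted p = 2.1e-13), and the hevein-like HEL had 1420, 1419 and 1835 and 14.3, 14.4 and 14.8 (6.64 ± 0.15). ORA59, whose promoter is printed above, had 35.6, 40 and 43.5 FPKM in roots and 3.03, 3.98 and 2.07 in shoots (3.36 ± 0.17). The factor ERF1 had 4.2, 5.1 and 4.59 and 0.732, 0.489 and 0.804 (1.75 ± 0.14), and EDF3, a transcription factor gene induced by ethylene, had 27.4, 24.3 and 23.8 FPKM in roots (3.20 ± 0.10). For each of these genes every root library stood above every shoot library. ERF5, ERF11, ERF14 and ERF15 were also higher in roots, by 2.09 to 2.90. The calls of ERF4, ERF104, HRE1 and RAP2.12 were lost with median-ratio scaling, and HRE1 also fell to 0.97, 0.97 and 0.88 without root 2, root 3 or shoot 1. ERF105 and ERF2 were higher in shoots (-1.43 ± 0.28 and -1.25 ± 0.25). The defensin gene PDF1.2A, often used with HEL as a marker, did not reach the minimum for testing, with 0, 0 and 0.0652 FPKM in roots and 1.48, 0.791 and 5.48 in shoots.

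**Figure D4:**
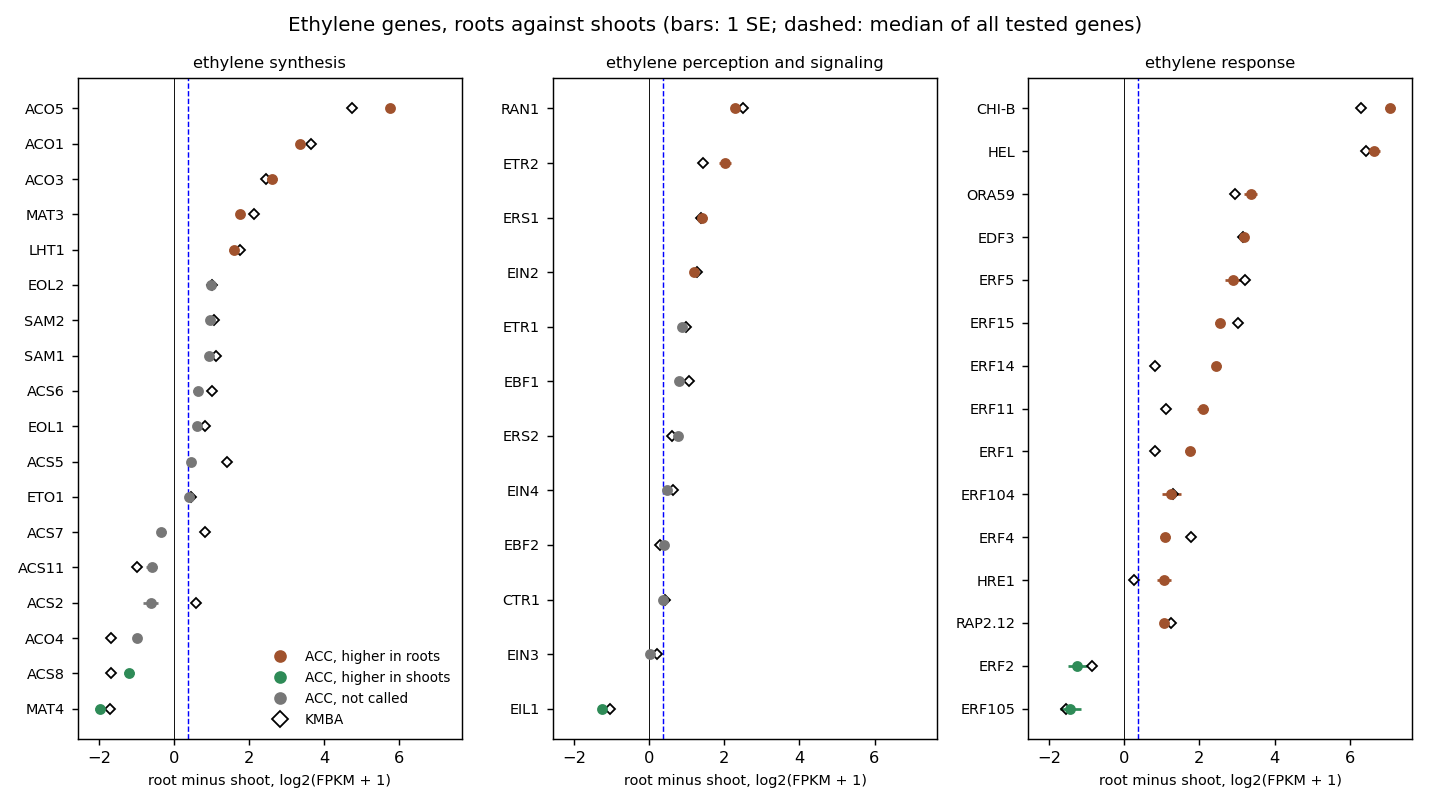
Filled circles give the log2 difference between roots and shoots of ACC plants with 1 standard error for the ethylene genes named in the text, and open diamonds the same difference in KMBA plants. CHI-B (7.07), HEL (6.64) and ACO5 (5.76) lie farthest to the root side, MAT4 (-1.97) farthest to the shoot side, and the blue dashed line at 0.37 is the median of all tested genes.

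Sulfate metabolism, the study's own subject, had no common direction. Higher in roots were 7 and in shoots 5 of 27 tested genes, beside 22.7% and 13.9% of all tested genes. The median was 0.24, close to 0.37 of all genes, and median-ratio scaling gave 5 and 6. The uptake transporter SULTR1;2 had 22, 27 and 24.3 FPKM in roots and 3.48, 5.26 and 5.64 in shoots (2.15 ± 0.17), SULTR3;5 had 7.17, 7.14 and 7.2 and 0.137, 0.0818 and 0.0418 (2.91 ± 0.06), and SULTR3;3 was higher in shoots (-1.87 ± 0.09). ATP sulfurylase, the first enzyme, divided into ATPS4 in roots (95.7, 105 and 87.9 FPKM against 14.9, 11.5 and 10.6; 2.87 ± 0.11) and ATPS1 and ATPS3 in shoots (-1.16 ± 0.12 and -1.49 ± 0.22). Different members of the transporter and ATP sulfurylase families were thus higher in either organ. The plastid serine acetyltransferase SERAT2;1 was higher in roots, at 111, 108 and 114 against 9.51, 9.79 and 8.95 FPKM (3.43 ± 0.09).

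Of the adenosine phosphosulfate reductases, which control the rate of the pathway, APR2 was higher in shoots (-1.29 ± 0.17) and APR1 and APR3 were not called (0.51 ± 0.24 and 0.70 ± 0.23). ACC shoot replicate 2 stood above the other shoots for APR1 (21.5, 44.8 and 21.1 FPKM), APR3 (35.7, 86.6 and 47.8) and the sulfur deficiency gene SDI1 (1.44, 6.67 and 3.38), and also for LSU2 (20.5, 48.4 and 28.3). In the roots these genes varied little, SDI1 at 0.848, 0.834 and 0.872 and LSU2 at 18.7, 19.2 and 14.5 FPKM. SDI1 was higher in shoots (-1.23 ± 0.31, adjusted p = 0.0026), LSU4 in roots (1.19 ± 0.18), and the other 7 of 9 tested sulfur deficiency genes were not called. Over all tested genes 13.9% were higher in shoots and 22.7% in roots. The calls of SDI1 and LSU4 were both lost without ACC shoot 2, at -0.82 and 0.97. With median-ratio scaling 0 of 9 were higher in roots and 3 were higher in shoots. There LSU4 lost its call, at 0.85, and LSU2 was called in favour of shoots, at -1.185. The sulfur regulator SLIM1 was within 2-fold (0.42 ± 0.07).

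Glucosinolates, the sulfur-rich defence compounds of the mustard family, are described by branch. Of 16 aliphatic pathway genes 4 were higher in roots and 4 in shoots (median 0.01), beside 22.7% and 13.9% of all tested genes, or 2 and 5 with median-ratio scaling. CYP79F1 had 0.0102, 0.0203 and 0.0166 FPKM in roots and 17.7, 10.7 and 7.14 in shoots (-3.58 ± 0.21), and its neighbour CYP79F2 had 22.6, 19.1 and 18.1 and 1.1, 0.576 and 0.685 (3.55 ± 0.13). Their reads can be divided between them, but neither organ carried both at a like level. The chain-elongating synthases did the same, MAM1 higher in shoots (-2.09 ± 0.13) and MAM3 in roots (2.60 ± 0.12). Among 12 indolic genes 7 were higher in roots and none in shoots (median 1.18; 5 and none with median-ratio scaling), with CYP81F4 at 473, 410.2 and 331 FPKM against 3.7, 4.71 and 9 (5.96 ± 0.30) and CYP79B2 at 62.1, 53.8 and 47.3 against 13.7, 5.2 and 5.87 (2.69 ± 0.28).

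The glucosidases that activate these compounds differed most sharply. The myrosinases TGG1 and TGG2 had 197, 206 and 194 and 69.5, 59.2 and 65.9 FPKM in shoots and at most 0.11 in roots, and the root myrosinases TGG4 and TGG5 had 8.07, 11.9 and 10.5 and 4.71, 6.91 and 6 FPKM in roots and at most 0.0216 in shoots. The endoplasmic reticulum body gene NAI2 (4.94 ± 0.11) and the binding protein gene PBP1, at 1150, 1191 and 893 FPKM in roots and 57.1, 46.4 and 61.1 in shoots, were higher in roots, as was BGLU23, at 434, 598 and 553 and 6.35, 4.35 and 6.01. The error of BGLU23 was wide (6.33 ± 1.90, adjusted p = 0.0084), and in the KMBA roots of the same fit it was listed at 0, 821 and 965 FPKM, where an exact 0 can be a failed estimate. In the list 9 of 12 were higher in roots and 2 in shoots.

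The triterpene gene clusters of the root were higher in roots for 9 of 10 tested members (median 4.02). The thalianol cluster gene THAD had 147, 152 and 112 FPKM in roots and 0.0993, 0.108 and 0.146 in shoots (6.94 ± 0.16, adjusted p = 1.1e-12) and THAS1, the cyclase that makes thalianol, 25.1, 32.8 and 21.7 and 0.0402, 0.0221 and 0.0472. The marneral synthase MRN1 had 10.7, 11.9 and 10.3 FPKM in roots and was listed at 0 in shoots. LUP1, which makes lupeol and lies outside the clusters, was higher in shoots (-1.18 ± 0.13).

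Of 15 tested genes of flavonoids and anthocyanins 6 were higher in roots and 2 in shoots, beside 22.7% and 13.9% of all tested genes (median 0.37, that of all genes). Chalcone synthase CHS, the entry enzyme, had 538, 567 and 478 FPKM in roots and 51.5, 34.1 and 51.5 in shoots (3.52 ± 0.16), flavonol synthase FLS1 89.4, 80.4 and 59.9 and 6.99, 5.05 and 6.87 (3.40 ± 0.17), and F3H 3.29 ± 0.16. The flavonol regulators divided, MYB12 at 6, 5.24 and 5.39 FPKM in roots and 0.0554, 0.0343 and 0.0569 in shoots and MYB111 at 0, 0.0221 and 0.00903 and 2.38, 3.05 and 3.72. MYB12 and MYB111 were each near 0 in the organ where the other was expressed. DFR and LDOX, of anthocyanin synthesis, were not called (0.25 ± 0.24 and 0.36 ± 0.19).

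Jasmonate and salicylate genes gave 9 higher in shoots and 3 in roots of 22 tested (median -0.35), beside 13.9% and 22.7% of all tested genes. The jasmonate synthesis genes AOS (97.6, 216 and 125 FPKM in shoots, 13.7, 12.2 and 11.1 in roots) and LOX3 (9.26, 13.2 and 7.28 and 0.0252, 0.0189 and 0.0258) were higher in shoots, and shoot replicate 2 was again the highest. Allene oxide cyclases divided, AOC1 and AOC2 being higher in shoots (-5.53 ± 0.31 and -6.70 ± 0.20) and AOC3 and AOC4 in roots (2.09 ± 0.18 and 1.54 ± 0.11), with the caution that AOC1, AOC2 and AOC3 are near-identical neighbours. The salicylate marker PR1 was listed at 0 in all 3 root libraries and had 4.08, 3.56 and 8.6 FPKM in shoots, PR2 had 0.376, 0.392 and 0.392 and 29.6, 26.4 and 25.2, and PR5 0.245, 0.12 and 0.0788 and 5.23, 8.37 and 4.73.

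Abscisic acid and dehydration genes gave 6 higher in roots and 9 in shoots of 26 tested, beside 22.7% and 13.9% of all tested genes. The median was 0.14, and median-ratio scaling gave 4 and 11. The chloroplast cold-regulated genes COR15A (1.77, 2.49 and 2.67 FPKM in roots, 149, 145 and 161 in shoots) and COR15B (-6.94 ± 0.12) and the dehydration gene RD22 (-3.88 ± 0.17) were higher in shoots. All root libraries were at a few FPKM for COR15A, far below every shoot. LTI30, a dehydrin, was higher in roots, at 361, 323 and 351 FPKM against 50.5, 45.2 and 95.1 (2.50 ± 0.23), as were the protein phosphatase ABI1 (1.36 ± 0.10) and the NAC factor RD26 (1.66 ± 0.13). ABI1 lost its call with median-ratio scaling, at 0.95. ACC shoot replicate 3 was the highest shoot for RD29A (133, 106 and 194 FPKM) and ERD10 (387, 423 and 694), both called higher in shoots. NCED3, the enzyme that limits abscisic acid synthesis, did not reach 2-fold on the log2(FPKM + 1) scale (0.53 ± 0.11, with 1.35, 1.75 and 1.37 FPKM in roots and 0.544, 0.673 and 0.983 in shoots).

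Of 9 genes of hypoxia and fermentation 8 were higher in roots and none in shoots (median 1.72), among them the haemoglobin HB1 (4.67, 6.87 and 6.22 FPKM and 0.494, 0.584 and 0.419), LBD41 (15.1, 18.6 and 19.2 and 1.11, 1.66 and 1.45; 2.95 ± 0.11) and alcohol dehydrogenase ADH1 (1.83 ± 0.14). Of 16 cell division genes 7 were higher in roots (median 0.91), but with median-ratio scaling only CYCD3;1 (1.96 ± 0.09) and CDKB1;1 (2.05 ± 0.10) remained. These were 2 of 15 genes tested there, beside 16.7% of all tested genes with that scaling. Root patterning and auxin transport gave 13 higher in roots and 1 in shoots of 19 tested, with the auxin exporter PIN2 at 11.8, 12.8 and 11.8 FPKM against 0.0739, 0.0131 and 0.155 and the quiescent centre gene WOX5 at 1.56, 2.23 and 1.99 against 0.263, 0 and 0.0785, and PIN4 higher in shoots (-1.72 ± 0.09). Leaf patterning gave 6 higher in shoots and 4 in roots of 17, beside 13.9% and 22.7% of all tested genes. The unscaled hypoxia, cell division and root patterning counts stand beside the same shares. TCP10, which limits leaf growth, had 35.2, 37.2 and 37.2 FPKM in shoots and 1.69, 1.77 and 1.36 in roots (-3.85 ± 0.08), and KNAT1, known from the shoot meristem, had 7.15, 7.08 and 8.36 in roots and 0.199, 0.0821 and 0.039 in shoots (2.95 ± 0.08).

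Of 8 tested MADS-box and floral transition genes 4 were higher in roots, AGL12, AGL14, AGL16 (0.88 without root 3 and 0.95 without shoot 3) and AGL42, and the day-length gene CO was higher in shoots (-1.47 ± 0.12). AGL14 (0.96) and AGL16 (0.73) lost their calls with median-ratio scaling, which left 2 higher in roots and 1 in shoots. Of 10 tested clock genes ELF4 was higher in roots, at 309, 259 and 317 FPKM against 63.3, 65.2 and 83.1 (2.05 ± 0.12), PRR7 (-1.63 ± 0.10) and LNK2 (-1.23 ± 0.09) were higher in shoots, and TOC1 did not pass the test (-0.14 ± 0.10, adjusted p = 0.21). Among 11 commonly used reference genes 2 were higher in roots, ACT8 (1.65 ± 0.10) and GAPC1 (1.95 ± 0.10). The MADS-box, clock and reference counts stand beside 22.7% of all tested genes higher in roots and 13.9% higher in shoots. Actin ACT2 had 236, 235 and 228 FPKM in roots and 222, 258 and 245 in shoots (-0.05 ± 0.09, adjusted p = 0.61), and PP2AA3 differed by 0.33 ± 0.08, close to the median gene.

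The organ difference was compared with that of KMBA plants, which share no library with it. At an adjusted p under 0.05 the ACC difference departed from the KMBA difference in 1895 of 18357 genes (10.3%), with 537 above 0 (farther to the root side with ACC) and 1358 below 0, and by more than 2-fold in 421. The count was 1227 without ACC root 2 and 768 with every library set to an equal FPKM sum. For 2 genes the difference was over 2-fold higher in opposite organs with the 2 compounds. The organ difference of AT4G33720 departed without changing sides: its root level was 1589, 1610 and 1773 FPKM with ACC and 56.1, 36.8 and 109.9 with KMBA, and all KMBA shoots listed it at 0 (adjusted p = 5e-05). The root hair genes XTH26 (6.66, 6.69 and 6.17 FPKM in ACC roots, 1.08, 0.385 and 1.07 in KMBA roots) and PRP1 (departure 1.70), and the ethylene response factor ERF14 (4.04, 5.55 and 4.59 and 0.406, 1.04 and 0.861), also stood higher in ACC roots.

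Other genes departed the opposite way. Of the 10 tested triterpene genes 7 were called, and all 7 lay below 0: MRN1 had 10.7, 11.9 and 10.3 FPKM in ACC roots and 41.4, 27.8 and 36.6 in KMBA roots. PDC1, pyruvate decarboxylase of fermentation, had 8.84, 7.03 and 6.22 and 29.4, 34.5 and 22.7 FPKM in the respective roots (departure -2.10), and the flavanone-forming CHI had 34.5, 38.1 and 30.5 and 72.3, 79.8 and 63.4. The departures of PR1 and PR2 came with the shoots: PR1 had 4.08, 3.56 and 8.6 FPKM in ACC shoots and was listed at 0 in all KMBA libraries, and PR2 had 29.6, 26.4 and 25.2 in ACC shoots and 0.303, 0.918 and 9.63 in KMBA shoots. Aliphatic glucosinolate genes were called in 13 of 16, all 13 above 0, and LOX3 had 9.26, 13.2 and 7.28 FPKM in ACC shoots against 53.7, 32.8 and 53.5 in KMBA shoots. Of 15 flavonoid genes 11 were called, all below 0. The ethylene genes were called in 5 of 19 synthesis, 1 of 15 perception and signaling and 7 of 23 response members. Over all tested genes 10.3% were called. ERF14 and ACO5 lay above 0 and ACS5 and ACS7 below 0. All ACC roots were in pool 4 and all KMBA roots in pool 2, so compound and pool cannot be told apart in roots.

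**Figure D5:**
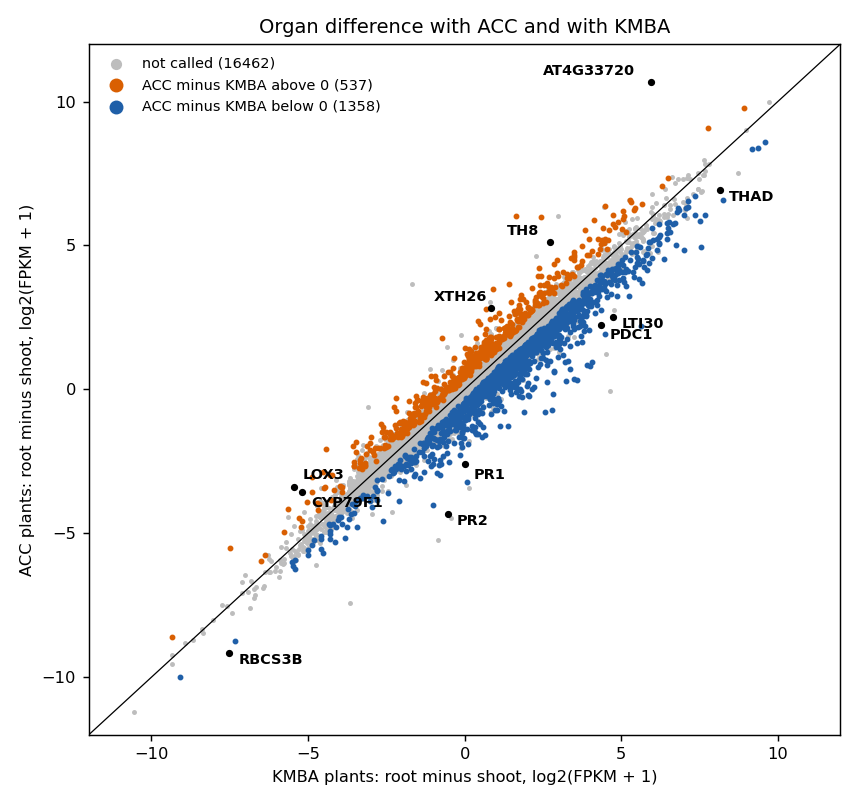
Each point is 1 tested gene, with its log2 difference between roots and shoots in KMBA plants across and in ACC plants upwards. Most genes lie along the diagonal, the 537 genes above and the 1358 below it in colour departed at an adjusted p under 0.05, and AT4G33720, above the line, and PR2, below it, lie far from it.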

How the data were processed

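Polyadenylated RNA of roots and shoots was sequenced in 18 libraries, and the 12 of the ACC and KMBA plants were used. Per the labels and the study's methods the authors trimmed reads with Trimmomatic 0.36 after quality control with FastQC 0.11.5, mapped them to TAIR10 with TopHat, and used featureCounts (version 1.5.1 in the submitters' processing notes, a later version in the study's methods) and Cufflinks 2.2.1 with Cuffdiff, and they deposited FPKM values per gene. Whole reads per gene were not recovered, because the worth of 1 read depends on each gene's effective length. Steps among the low FPKM values gave the relative depth of the ACC libraries, 0.97 to 1.23 of that of root 1, and the absolute depth is unknown, so no counting interval is given. A value of 0 may therefore be a failed estimate.

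Values were analysed as log2(FPKM + 1) in R 4.3.3 with limma 3.58.1 (trended empirical Bayes), 1 model over 12 libraries with a mean for each compound and organ, for genes reaching 1 FPKM in 3 or more of these libraries. P-values were adjusted by the Benjamini-Hochberg method over all tested genes. A gene was called at an adjusted p under 0.05 and over 2-fold, and a departure of ACC from KMBA at an adjusted p under 0.05 alone. On simulated data 100%, 98.5% and 98.5% of simulated log2 changes of 1.5, 2 and 3 were recovered, with 0 false calls among 15566 genes. There root means were set to shoot means, noise was normal, and only well expressed genes were shifted, all beyond 2-fold. Pools, scaling differences and changes of weakly expressed genes were not simulated. The run therefore checks the code and gives no error rate for the real data. Tables and plots were made with Python 3.11.15, pandas 2.3.3, numpy 2.4.6 and matplotlib 3.10.9.

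The comparison and its 36 gene lists (687 different genes) were chosen with earlier results of these data known. Genes named were the 15 largest differences each way among called genes without overlap whose mean reached 5 FPKM in the higher organ, up to 6 list members with the lowest p, any member of the ethylene and of the ferredoxin and nitrogen lists, and sulfur genes of the study. The following were named outside that rule after their values were seen: ACT2, AMT1;1, AOC3, AOC4, AT2G01021, AT5G53144, AVP1, CAT2, CP12-1, CYP86A4, DFR, ERD10, GL2, GL3, GLK1, GLYK, GPAT4, HEMA1, HEMA2, IRT1, KCS20, LDOX, LHCB1.3, LTI30, LUP1, MYB111, NCED3, NHX1, PBP1, PIN4, PIP2;3, PR1, PR2, PR5, PRP1, RD29A, RHD6, RPE, SCR, SLAH3, SOS1, TGG4, TGG5, TIM, TKL1, TOC1, WOX5 and XTH26. Promoters and positions were read from the RefSeq annotation of TAIR10.1. The alternatives were other pseudocounts, filters, scalings, empirical Bayes settings and thresholds, the 6 ACC libraries alone, the replicate number as a term, and leaving out each ACC library. Some members of the lists are not reported here by name.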

Additional observations from a re-analysis of the deposited data

Results flagged for a closer look

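A result is given here where the organ difference departed between the ACC and the KMBA plants by the test of that difference (limma, adjusted p under 0.05 over all tested genes, n = 3 libraries per organ and compound), as it did for 1895 genes. The values are log2 departures, ACC minus KMBA, for genes named in the report that had a value above 0 in each of the groups. A positive value is a difference farther to the root side with ACC, and a negative value one farther to the shoot side.

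Genes of ethylene went both ways. The ACC synthase genes ACS2, ACS7 and ACS5 departed by -1.22, -1.15 and -0.95, and the ACC oxidase genes ACO4 and ACO5 by 0.68 and 1.02. ERF4 departed by -0.67, and ERF1, ERF11 and the chitinase CHI-B by 0.92, 0.98 and 0.77. With a pseudocount of 0.1 the value of ERF1 was -0.04 and that of the myrosinase TGG2 -0.64, the reverse of their sign here.

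Genes of jasmonate and of aliphatic glucosinolates, which were higher in shoots or divided, departed toward roots. These were LOX3 (2.07), AOC1 (1.97), AOS (1.07), LOX2 (0.74), CYP79F1 (1.61), CYP79F2 (0.79), MAM1 (0.93) and TGG2 (0.52). The salicylate genes PR2 (-3.79) and PR5 (-1.58) departed toward shoots.

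Departures were called for 4 of 20 antenna, 4 of 30 photosystem and 5 of 21 Calvin cycle genes, beside 10.3% of all tested genes. For photorespiration and chlorophyll synthesis the counts were 0 of 16 and 0 of 19. The called photosynthesis genes named here departed toward shoots by -1.64 for RBCS3B, -1.40 for RBCS1B, -0.82 for RBCS1A, -0.49 for PSAL and -0.43 for LHCB4.1. Flavonoid genes did so by -1.46 for DFR, -1.38 for LDOX, -1.29 for CHI and -1.12 for FLS1, and the thalianol genes by -1.23 for THAD and -1.10 for THAS1. Fermentation genes gave -2.10 for PDC1, -0.73 for ADH1 and -0.67 for LBD41.

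Dehydration and abscisic acid genes gave -2.23 for LTI30, -1.17 for ERD10, -1.14 for RD29A, -0.95 for COR15A and -0.71 for NCED3. Transporter and water channel genes gave -1.0 for AMT1;1, -0.89 for AMT1;3, -0.76 for PHT1;1, -0.84 for PHT1;2, 0.60 for PHO1, -0.54 for SULTR3;3, -0.90 for PIP2;6, -0.79 for TIP2;3, -0.42 for TMT1 and 0.51 for the auxin exporter PIN2. The barrier and surface genes ABCG6, GPAT5 and CER6 had -0.66, -0.47 and -0.82.

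Of the genes with the largest organ differences, AT4G16260 departed by 1.33, OSM34 by 0.85, MLP34 by -0.98, MLP328 by -1.0, MLP329 by -0.83 and AT2G10940 by -0.92. The remaining named genes were the root hair gene PRP1 (1.70), the binding protein gene PBP1 (-1.18), the endoplasmic reticulum body gene NAI2 (-0.66), the invertase CWINV1 (-0.88), the glutamine synthetase GLN1;1 (-1.06) and the leaf regulator TCP10 (0.42). Calls of TMT1, LHCB4.1, PIN2, AOS, ERF4, TCP10, CER6, ADH1, RD29A, OSM34, MLP34, RBCS1A, ERD10, SULTR3;3 and CHI-B were lost when 1 or more of the ACC libraries was left out. Of the 63 departures given here, 35 were no longer called with equal FPKM sums, 28 with a pseudocount of 0.1, beside the 2 that changed sign, 10 with median-ratio scaling and 10 without a filter.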

How the results depend on the processing

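The counts of genes called in each organ, 4165 higher in roots and 2553 higher in shoots, were 1662 and 1213 with a fold over 4. That threshold also left 127 list members higher in roots in place of 215. The 4165 and 2553 also changed with other settings. Equal FPKM sums raised them to 6018 and 2727, and a pseudocount of 0.1 to 5402 and 2928. Leaving out 1 ACC library gave 3990 to 4321 and 2474 to 2584. The 1895 departures between ACC and KMBA became 768 with equal FPKM sums and 1227 to 1985 without 1 ACC library, lowest without ACC root 2. With median-ratio scaling PP2AA3, EIN3, ETO1, CTR1 and EBF2, all within 2-fold, changed sign (-0.03, -0.40, -0.00, -0.02 and -0.03), as did the medians of the sulfate, aliphatic glucosinolate, sugar, abscisic acid and flavonoid lists. That scaling ended the organ call of 11 named genes and gave 3 a new one. With a pseudocount of 0.1 the departures of ERF1 (-0.04) and TGG2 (-0.64) changed sign. Over all list counts and settings 1055 stayed within 1.5 times and 65 did not. The cause was not tested. With the replicate number as a term (replicate block, 6 ACC libraries) the counts were 4111 and 2519. Root and shoot libraries of the same number deviated together with r of 0.032, 0.047 and 0.071, each the best match of its number but none over 0.1, and the labels do not say that a number marks a shared plate or day. A count test was not run, since no counts were recovered. The absolute depth is unknown, so at low values no limit of detection can be given, and near-identical genes may share reads.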
